A study of Homo sapiens with 18 samples.

Results

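The data described here are 6 of the 18 RNA sequencing libraries of a study on 2 human cell lines: 3 libraries of non-irradiated mixed cultures of MCF10A and HCT116 cells, and 3 libraries of non-irradiated HCT116 cells grown alone. They were chosen by their sample titles, not by any measured value. HCT116 is a colorectal carcinoma line, used here unlabelled and described as p53-null, without naming the clone or the deleted part of the gene. MCF10A cells come from mammary epithelium and are not tumour-derived, and those used carried a histone H2B fused to green fluorescent protein (H2B-GFP). The mixed cultures held both of these cell populations and were described as a 50-50 mix. HCT116 cells alone were kept in McCoy's 5A medium with fetal bovine serum, and MCF10A cells alone in DMEM/F12 with horse serum, EGF, hydrocortisone, cholera toxin and insulin. The medium of the mixed cultures was not given, so an effect of the medium and an effect of the other cell line cannot be told apart. The titles place the harvest at day 2, while the series text gives a longer interval. Libraries of non-irradiated MCF10A cells (3), and of HCT116 and mixed cultures irradiated with 10 Gy (3 each), are used for reference below. NIR stands for non-irradiated and IR for irradiated.

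Tumour cells that grow beside normal epithelium can receive growth factors, matrix and contact signals from it, and a bulk library of such a culture adds up the RNA of both. By level alone, RNA brought by MCF10A cells and altered expression in HCT116 cells cannot be told apart. MCF10A cells express basal epithelial genes such as keratins, laminin-332 and the transcription factor p63, which colorectal carcinoma cells express little. Early response genes such as FOS and EGR1 follow the activity of the ERK kinase pathway, and hypoxia genes follow the transcription factor HIF-1.

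The totals were 27622418 to 34566441 counts in the HCT116 libraries and 27946274 to 35976399 in the mixed libraries. Mitochondrially encoded genes took 8.61 ± 0.17% of the HCT116 counts and 8.54 ± 0.18% of the mixed counts. Levels below are in CPM, a gene's counts scaled by the library total, and means are given ± SD over 3 libraries. Differences are log2 fold changes of mixed cultures over HCT116 alone, ± their standard error (SE), from edgeR's quasi-likelihood test over all genes. A gene was called when its p-value, adjusted over all tested genes with the Benjamini-Hochberg method, was under 0.05.

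Of 16455 genes tested, 335 (2.04%) were called by edgeR, of which 146 (0.887%) were higher and 189 (1.15%) lower in the mixed cultures. Most differences were small. The called higher genes had a median log2 fold change of 0.41 and the called lower genes one of -0.52, and 37 genes (0.225%) were higher and 19 (0.115%) lower by 2-fold or more. The median over all tested genes was -0.00432. The number of calls rested on single libraries: it was 145 without mixed replicate 1 and 178 without HCT116 replicate 2. The fit over all 18 libraries called 490 genes higher and 278 lower, so the balance of directions also depended on the fit.

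How much of the MCF10A programme the mixed libraries contained was measured with 127 genes that had a mean of at least 20 CPM in MCF10A and less than 1 CPM in each irradiated HCT116 library. Neither group compared here took part in that choice. The median of these genes stood at 0.484%, 0.367% and 0.388% of the MCF10A level in mixed replicates 1, 2 and 3. In HCT116 alone it stood at 0%, 0.0161% and 0%. All 3 mixed libraries were above all 3 HCT116 libraries (mean 0.413 ± 0.0621% against 0.00536 ± 0.00929%; exact permutation p = 0.1, 2-sided, the smallest that 3 against 3 libraries allow). The quartiles over genes in the mixed cultures were 0.199% and 1.12%. ITGB6 reached 10.0% of its MCF10A level, the proteoglycan gene SPOCK1 7.03%, the matrix gene TNC 5.16% and the metalloproteinase inhibitor gene TIMP3 4.55%, so single genes lay far above the median. HCT116 alone stood at 0.371% for ITGB6, 1.26% for SPOCK1, 0.22% for TNC and 1.53% for TIMP3. In a bulk library, fewer MCF10A cells and less RNA per MCF10A cell cannot be told apart.

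**Figure D1:**
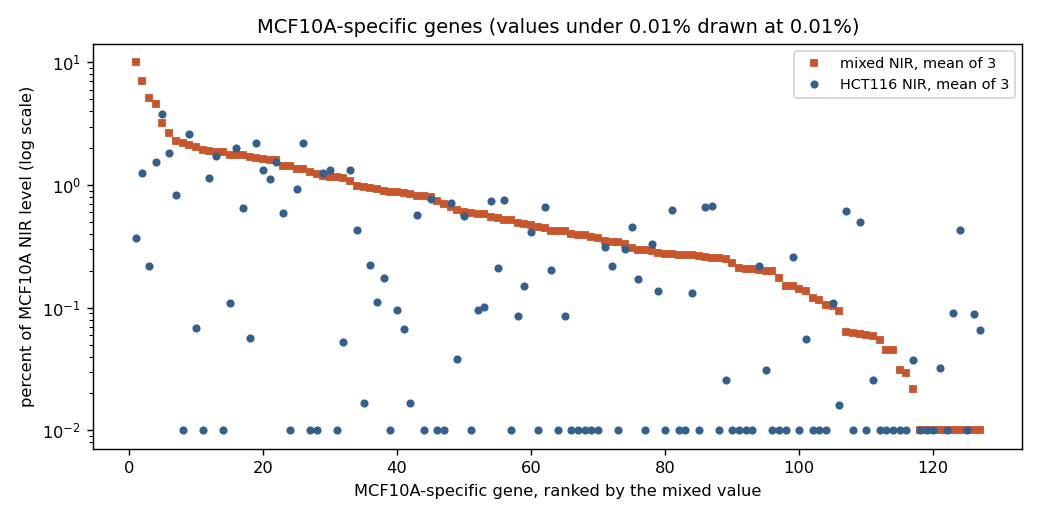
Level of 127 MCF10A-specific genes in mixed cultures (squares) and HCT116 alone (circles), as a percentage of the MCF10A level on a log scale, with genes ranked by the mixed value and points as means of 3 libraries. ITGB6 leads at 10.0%, the quartiles over genes are 0.199% and 1.12%, and many HCT116 values sit at the lower limit of the plot.

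Among genes of at least 5 CPM in the higher group, those with the largest log2 fold change were TGFBI and a histone gene. TGFBI encodes a secreted matrix protein induced by TGF-beta (chromosome 5, 136028988 to 136063818, GRCh38.p14). It had 0 counts in each HCT116 library and 34.5, 27.7 and 31.5 CPM in the mixed libraries. Against a floor of 3 counts over the HCT116 group, TGFBI was at least 976-fold higher, or at least 488-fold if each read pair was counted as 2 reads (edgeR adjusted p = 4.25e-13). The rise of TGFBI amounted to 1.22% of its level in MCF10A (2555 ± 197 CPM).

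H2BC11 encodes a replication-dependent histone H2B (chromosome 6, 27132316 to 27132795). Its level was 0.174, 0.124 and 0.652 CPM in the HCT116 libraries and 42.4, 40.7 and 34.97 CPM in the mixed libraries. The difference was 7.04 ± 0.24 (edgeR adjusted p = 6.93e-13), and the rise equalled 15.5% of the MCF10A level of 252 ± 14.7 CPM. H2BC11 was the 1 called gene among 9 tested genes of the clustered H2B family (19 in the tables), and the other 8 tested lay between -0.43 and 0.64. None of 5 tested clustered H2A, H3 and H4 genes was called by edgeR or DESeq2, nor had any an unadjusted p under 0.05 (0 genes). The coding sequences of 5 other H2B genes are 86.1% to 92.1% identical to that of H2BC11, so the assignment of its reads carries some uncertainty. The labels do not name the H2B gene in the H2B-GFP reporter of the MCF10A cells, and a part of the reporter's transcript in this count was not tested.

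ITGB6, the beta subunit of the epithelial integrin that activates latent TGF-beta, rose by 4.67 ± 0.43 (edgeR adjusted p = 8.88e-06). It was at 0.347, 0.249 and 0 CPM in HCT116 and at 6.44, 5.51 and 4.14 CPM in the mixed cultures. PMEPA1, a TGF-beta target that dampens SMAD signalling, was at 2.63, 1.31 and 1.74 CPM in HCT116 and at 10.9, 10.1 and 7.53 CPM in the mixed cultures (2.33 ± 0.23, edgeR adjusted p = 1.09e-05). The rises of these genes were 9.65% and 9.69% of their MCF10A levels. No overlap between the groups was a condition for naming these genes among the leading ones.

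PDE4D, which degrades cyclic AMP, was at 6.74, 2.39 and 2.32 CPM in HCT116 and at 11.8, 13.2 and 10.8 CPM in the mixed cultures (1.64 ± 0.27, edgeR adjusted p = 0.00209). HCT116 replicate 1 stood above the other 2 HCT116 libraries, yet below every mixed library. COL17A1, a hemidesmosome collagen, rose by 1.58 ± 0.17, ZBED2, a transcription factor of basal keratinocytes, by 1.503 ± 0.15, and SEMA3C, a secreted semaphorin, by 1.18 ± 0.12. TARID rose by 2.11 ± 0.32, but it is an antisense RNA and the use of strand in the counting is not given in the sources used here. The MCF10A level of TARID was 0.624 CPM, below the HCT116 mean of 1.41 CPM.

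**Figure D2:**
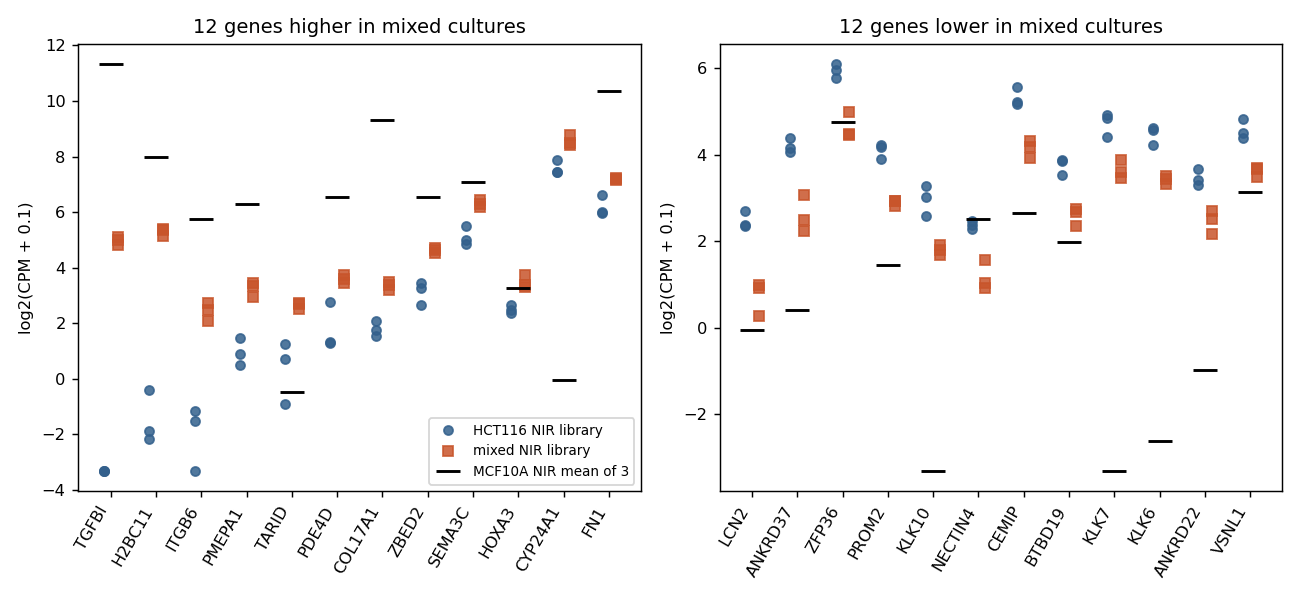
Level of the 12 called genes with the largest log2 rise and the 12 with the largest log2 fall among genes whose higher group reached 5 CPM, as log2(CPM + 0.1), for each HCT116 library (circles) and mixed library (squares), with the MCF10A mean as a bar. The libraries of the groups do not overlap for any gene, and for CYP24A1, TARID and HOXA3 the MCF10A mean lies below the mixed libraries.

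Genes linked to TGF-beta moved in both directions. Of 24 genes of a TGF-beta target list, all tested, 7 rose and 2 fell, which is 37.5% called against 2.04% of all genes. The list's median was 0.22, against -0.00432 for all genes. TGFBI is also a member of the basal marker list below. After TGFBI, the collagen and tenascin genes of the TGF-beta list rose most in relative terms. COL4A1 was at 0.116, 0.0622 and 0.217 CPM in HCT116 and at 2.51, 2.34 and 1.56 CPM in mixed cultures (4.03 ± 0.49). COL4A2, its neighbour on chromosome 13, begins 127 bases away in the opposite orientation and rose by 4.36 ± 0.48. Both encode chains of the basement membrane collagen IV. TNC, which encodes tenascin-C, was at 0, 0.249 and 0.145 CPM in HCT116 and at 2.86, 3.55 and 2.81 CPM in mixed cultures (4.56 ± 0.51). The rises of COL4A1, COL4A2 and TNC equalled 1.66%, 1.1% and 4.94% of their MCF10A levels. FN1, which encodes fibronectin, was the most abundant of the genes of the list that rose. It was at 97.4, 62.7 and 64.2 CPM in HCT116 and at 141, 148 and 150 CPM in mixed cultures, a rise of 0.98 ± 0.11 (edgeR adjusted p = 4.60e-05) equal to 5.38% of its MCF10A level.

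Of the other signalling feedback genes of the list than PMEPA1, SKIL, a repressor of SMAD complexes, rose by 0.42 ± 0.08. SMAD7, the inhibitory SMAD, had 5.97 ± 0.17 CPM in HCT116 and 8.69 ± 2.03 CPM in mixed cultures and was not called (edgeR adjusted p = 0.108). The 2 called lower were ID2, an inhibitor of bHLH factors (-0.36 ± 0.08), and the repressor BHLHE40 (-0.47 ± 0.10). Each of these calls was lost in 3 of the 6 fits without 1 library, and BHLHE40 was also not called by DESeq2. The summed level of the list was 1110.0 to 1156 CPM over HCT116 libraries and 1139 to 1255 CPM over mixed libraries, against 5463 to 5986 CPM in MCF10A.

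Markers of basal mammary epithelium were the list with the largest share of calls. Of 20 markers, 19 were tested, 9 rose and 1 fell (52.6% called), and the median was 0.81. KRT17 was at 0.0289, 0.28 and 0.0724 CPM in HCT116 and at 3.40, 2.48 and 2.25 CPM in mixed cultures (4.38 ± 0.51, edgeR adjusted p = 4.60e-05). TP63, which encodes the master regulator p63, had 0 counts in HCT116 and 1.29, 0.692 and 0.667 CPM in mixed cultures, at least 26.8-fold higher, or 13.4-fold with read pairs counted once. The desmoglein gene DSG3 had 2 counts in all HCT116 libraries together and 1.19 ± 0.166 CPM in mixed cultures. LAMA3, which encodes a chain of laminin-332, rose by 0.74 ± 0.11 from a level of 23.2 ± 3.80 CPM.

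The defining basal keratin KRT5 was not among the calls of the main fit. DESeq2 called it, as did the fits without a filter, with replicate number as a block and over all 18 libraries. It was not called with other scalings, with halved counts or without the mitochondrial and most abundant genes. It was at 0.289, 0.0622 and 0 CPM in HCT116 and at 0.93, 0.519 and 0.723 CPM in mixed cultures (edgeR adjusted p = 0.0837), although MCF10A held 2883 ± 133 CPM. Its rise was 0.0211% of the MCF10A level. KRT6A rose by 0.0821%, KRT81 by 0.105%, KRT7 by 0.196% and KRT17 by 0.537% of theirs. The call of KRT6A was lost without mixed replicate 1, and that of KRT81 in 4 of the 6 fits without 1 library. P-cadherin, CDH3, went the other way and fell by 0.28 on the log2 scale (196 ± 7.14 to 160 ± 1.72 CPM). Over the whole marker list, the summed level was 1050.0 to 1204 CPM in HCT116 libraries, 1160.0 to 1264 CPM in mixed libraries and 17070.0 to 18410.0 CPM in MCF10A libraries.

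The called higher genes differed widely in how their rise compared with MCF10A. Of the 146, 83 had a mean in MCF10A above that in the mixed cultures. Among these 83, the rise exceeded 5% of the MCF10A level for 50 genes and stayed under 1% for 18. In 43 of the 146 (29.5%, against 65.0% of all tested genes), MCF10A had a lower level than HCT116 alone, so the MCF10A level lay on the other side of the change. The HCT116 libraries used for this share also entered the calls, so it is not independent of them. The part of MCF10A RNA and of altered HCT116 expression in each rise was not tested beyond these values.

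**Figure D3:**
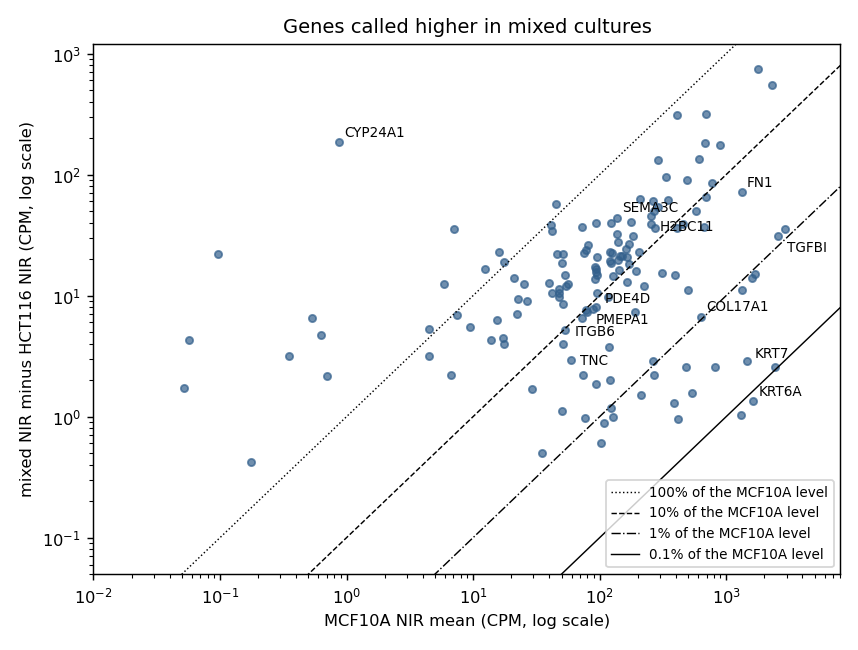
Rise from HCT116 to mixed cultures (CPM, log scale) against the MCF10A mean (CPM, log scale) for the 146 genes called higher, with lines at 100%, 10%, 1% and 0.1% of the MCF10A level. The rises of TGFBI and COL17A1 lie near the 1% line and that of KRT6A below the 0.1% line, while CYP24A1 lies far above the 100% line.

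CYP24A1, the enzyme that inactivates vitamin D, was the clearest gene of the last kind. It was at 233, 173 and 176 CPM in HCT116 and at 363, 433 and 344 CPM in mixed cultures, with 0.872 ± 0.12 CPM in MCF10A. The difference was 0.99 ± 0.10 (edgeR adjusted p = 1.24e-05), and it was called in each of the 6 fits that left out 1 library. PDE4B, a second cyclic AMP phosphodiesterase, rose by 0.65 ± 0.07, from 64.7 ± 5.02 to 100 ± 5.07 CPM, with 7.04 CPM in MCF10A. Of the HOXA genes, a cluster of positional transcription factors spanning 107 kb of chromosome 7, 11 were tested and 3 rose, where 0.887% of all genes were called higher. HOXA3 rose by 1.00 ± 0.16, HOXA5 by 0.67 ± 0.15 and HOXA9 by 0.47 ± 0.07, and 1 of the 11 had a log2 fold change below zero. HOXA9 had 16.1 CPM in MCF10A, under its HCT116 level of 61.8 CPM, whereas MCF10A was above HCT116 for HOXA3 (9.44 against 5.55 CPM) and HOXA5 (17.2 against 7.68 CPM). The family was looked at after its values were seen, and HOXA5 was not called in 4 of the 6 fits that left out 1 library.

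Among genes of at least 5 CPM in the higher group, LCN2, which encodes the iron-carrier-binding protein lipocalin 2, had the largest fall. It was at 6.37, 4.97 and 5.11 CPM in HCT116 and at 1.79, 1.10 and 1.89 CPM in mixed cultures (-1.77 ± 0.24, edgeR adjusted p = 2.31e-04). KLK10, KLK7 and KLK6 encode secreted serine proteases of the kallikrein family. KLK7 was at 21.1, 29.02 and 30.1 CPM in HCT116 and at 10.9, 14.7 and 12.0 CPM in mixed cultures (-1.08 ± 0.14). KLK6 fell by 1.04 and KLK10 by 1.20 on the log2 scale. In the 141 kb from KLK5 to KLK14 on chromosome 19, 8 of 10 genes were tested, 5 fell and 7 were below zero, where 1.15% of all genes were called lower. This stretch was looked at after its values were seen, and the call of KLK8 was lost in 4 of the 6 fits without 1 library. KLK5 had the largest fall of them, 3.55 ± 0.648 to 0.593 ± 0.164 CPM (-2.57 ± 0.32). MCF10A had at most 0.062 CPM of KLK5, KLK6, KLK7 and KLK10.

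The other leading falls were in genes of several kinds. ZFP36, whose product destabilises cytokine and early response mRNAs, went from 62.7, 54.6 and 68.3 CPM to 22.1, 31.6 and 22.0 CPM (-1.28 ± 0.12, edgeR adjusted p = 9.23e-06). PROM2, a membrane protrusion protein, fell by 1.21, NECTIN4, an adhesion molecule, by 1.19, and CEMIP, which degrades hyaluronan, by 1.18 on the log2 scale. BTBD19 fell by 1.15, ANKRD22 by 0.99 and VSNL1, a neuronal calcium sensor, by 0.96. All 24 genes in the plot of library levels were called in each fit that left out 1 library and in each alternative fit. Of the 189 genes called lower, 163 (86.2%) had a lower mean in MCF10A than in HCT116, as had 65.0% of all tested genes. The same HCT116 libraries entered the calls, so the share among called genes is not independent of them.

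Of 20 intestinal and simple epithelial markers, 11 were tested, 5 fell and none rose (45.5% called), with a median of -0.36. The simple keratins KRT8 and KRT18 fell by 0.30 and 0.36 on the log2 scale, from 1448 ± 28.2 to 1162 ± 4.55 CPM and from 393 ± 2.88 to 303 ± 17.2 CPM. ELF3, an epithelial transcription factor, fell by 0.56, KRT19 by 0.37 and E-cadherin, CDH1, by 0.27. The calls of KRT19, CDH1 and ELF3 were lost in 4, 5 and 3 of the 6 fits without 1 library. CDX2, the intestinal homeobox gene, had 10.0 CPM in HCT116 and 8.16 CPM in mixed cultures and was not called (edgeR adjusted p = 0.407). For comparison, 160 HCT116-specific genes, taken from irradiated HCT116 and non-irradiated MCF10A, had medians of 75.8 ± 0.346% in mixed cultures and 77.0 ± 1.41% in HCT116 alone, relative to irradiated HCT116 (exact permutation p = 0.1). Of 159 of them tested, 16 were called lower and 3 higher, where 1.15% and 0.887% of all genes were. A log2 fold change above zero was found for 50 of the 159.

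Genes of ERK pathway output fell in part. Of 29 genes that report ERK activity or feed back on it, all tested, 10 fell and none rose (34.5% called against 2.04% of all genes), and the median was -0.24. DESeq2 called 13 lower and 0 higher, and at an unadjusted p under 0.05 edgeR had 15 lower and 2 higher. Of all 16455 genes, DESeq2 called 297 lower and 278 higher, and 2367 had an unadjusted edgeR p under 0.05 in either direction. Of the early transcription factors, FOS was at 22.0, 16.2 and 16.8 CPM in HCT116 and at 8.87, 10.5 and 8.73 CPM in mixed cultures (-0.95 ± 0.13, edgeR adjusted p = 3.62e-04). EGR1 went from 218, 196 and 210 CPM to 97.1, 157 and 115 CPM (-0.74 ± 0.11, edgeR adjusted p = 0.00106). JUNB went from 74.4, 73.0 and 81.9 CPM to 38.7, 58.5 and 47.7 CPM (-0.64 ± 0.11). In each of these genes mixed replicate 2 was the highest mixed library, and all mixed libraries were under all HCT116 libraries.

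Of the feedback inhibitors, the nuclear ERK phosphatase DUSP5 fell by 0.86, the cytoplasmic phosphatase DUSP6 by 0.47, and SPRY1 and SPRY4, which restrain receptor tyrosine kinase signalling, by 0.86 and 0.39 on the log2 scale. DUSP5 was at 186, 203 and 194 CPM in HCT116 and at 89.7, 137 and 91.1 CPM in mixed cultures. The EGFR ligand gene AREG fell from 337 ± 19.7 to 214 ± 47.0 CPM (-0.64 ± 0.10), whereas HBEGF and TGFA, which encode other EGFR ligands, were not called (0.05 and 0.12). IER2 fell by 0.42 and MYC by 0.24. Of the 10, 5 were called in every fit that left out 1 library: FOS, EGR1, JUNB, DUSP5 and AREG. MYC was called in none of those fits. CCND1, a cyclin downstream of ERK, was not called (0.07).

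The promoters of the 3 early transcription factors named above are shown: the 250 bases before the RefSeq transcription start, 5′ to 3′ on the gene's strand, from GRCh38.p14. Capitals mark TGACG on either strand, the core of the cyclic AMP response element bound by CREB and ATF factors. The FOS stretch lies at chr14:75278578-75278827, that of EGR1 at chr5:138465229-138465478 and that of JUNB at chr19:12791236-12791485, each on the plus strand.
FOS: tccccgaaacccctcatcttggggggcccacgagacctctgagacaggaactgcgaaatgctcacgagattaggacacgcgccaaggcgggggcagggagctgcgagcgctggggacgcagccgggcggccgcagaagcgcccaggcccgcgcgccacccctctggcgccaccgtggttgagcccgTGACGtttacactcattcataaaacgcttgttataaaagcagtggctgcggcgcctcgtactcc
EGR1: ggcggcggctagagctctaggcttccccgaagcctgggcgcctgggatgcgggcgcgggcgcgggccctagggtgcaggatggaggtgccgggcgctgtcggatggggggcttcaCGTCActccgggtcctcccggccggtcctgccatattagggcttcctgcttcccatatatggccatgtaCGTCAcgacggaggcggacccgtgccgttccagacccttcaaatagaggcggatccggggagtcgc
JUNB: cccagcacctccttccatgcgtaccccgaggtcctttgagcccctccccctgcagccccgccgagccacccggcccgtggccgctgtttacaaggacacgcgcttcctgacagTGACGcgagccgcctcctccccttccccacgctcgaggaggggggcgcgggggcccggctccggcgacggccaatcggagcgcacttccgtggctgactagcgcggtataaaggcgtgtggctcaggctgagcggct
TGACG occurred in 6 of the 8 called genes of the list that had a listed promoter, and in 21.2% of all 35116 promoters of the same length. Uncalled genes of the list were not counted, and the promoters were not limited to tested genes. The EGR1 stretch also held 2 CArG boxes, the motif of serum response factor, which occurred in 1 of the same 8 genes and in 1.16% of all promoters. TGACG was also in 3 of 9 called TGF-beta target genes and 1 of 4 called hypoxia genes with a listed promoter. These matches are letters in a window and say nothing of a factor bound there.

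Hypoxia genes fell in part. Of 32 genes, all tested, 6 fell and none rose (18.8% called), with a median of -0.07. DESeq2 called 4 lower and 1 higher, against 297 and 278 of all 16455 genes. At an unadjusted p under 0.05 edgeR had 9 lower and 1 higher, against 2367 of all genes in either direction. ANKRD37, a direct HIF-1 target, went from 17.8, 16.8 and 20.8 CPM to 4.58, 5.51 and 8.34 CPM (-1.56 ± 0.17, edgeR adjusted p = 2.78e-05). HILPDA, a lipid droplet protein, fell by 0.77, the vasodilator gene ADM by 0.77, NDRG1 by 0.70, ANGPTL4 by 0.60 and MXI1 by 0.28 on the log2 scale. NDRG1 was at 581.5, 619 and 644 CPM in HCT116 and at 283.5, 333 and 508 CPM in mixed cultures. Mixed replicate 3 was the highest mixed library for ANKRD37, NDRG1, ANGPTL4, HILPDA, ADM and MXI1. The calls of NDRG1, ANGPTL4 and MXI1 were each lost without mixed replicate 1 and also without mixed replicate 2. The glucose transporter SLC2A1, the kinase PDK1 and the prolyl hydroxylase EGLN3, other HIF-1 targets, were not called (-0.00, 0.01 and -0.06). Of 17 glycolysis enzymes, 1 (ALDOA) was called lower (5.88%, against 2.04% of all genes called).

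The promoter stretch of ANKRD37 (chr4:185396591-185396840, plus strand) is shown as the largest fall of the list, with ACGTG on either strand, the core of the hypoxia response element, in capitals.
ANKRD37: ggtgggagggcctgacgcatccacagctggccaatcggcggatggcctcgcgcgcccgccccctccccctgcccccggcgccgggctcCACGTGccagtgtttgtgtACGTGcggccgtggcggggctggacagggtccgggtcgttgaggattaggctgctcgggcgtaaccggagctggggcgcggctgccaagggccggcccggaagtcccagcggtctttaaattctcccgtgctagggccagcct
It held 3 matches, of which 2 overlap as the palindrome CACGTG read on both strands, and 18.5% of all promoters held at least 1. Of 4 called hypoxia genes with a listed promoter, 3 held ACGTG, as did 4 of 9 called TGF-beta target genes and 2 of 8 called ERK genes. Here too, uncalled genes of the lists were not counted.

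A minority of interferon-stimulated genes fell. Of 31 in the tables, 29 were tested, 5 fell and none rose (17.2% called), and 24 were below zero, with a median of -0.25. DESeq2 called 8 lower and 0 higher, against 297 and 278 of all 16455 genes. At an unadjusted p under 0.05 edgeR had 14 lower and 0 higher, against 2367 of all genes in either direction. OAS1, a sensor of double-stranded RNA, was at 3.56, 3.33 and 3.08 CPM in HCT116 and at 1.00, 1.07 and 1.00 CPM in mixed cultures (-1.68 ± 0.26, edgeR adjusted p = 0.00118). IFI6 fell by 0.70, the tethering factor BST2 by 0.61 and IFITM3, which blocks viral entry, by 0.38 on the log2 scale. OAS1 was called in every fit that left out 1 library, while the calls of BST2, IFITM3 and IFI6 were lost in 4, 3 and 1 of those 6 fits. ISG15, the ubiquitin-like modifier, was not called (53.2 CPM and 45.2 CPM).

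**Figure D4:**
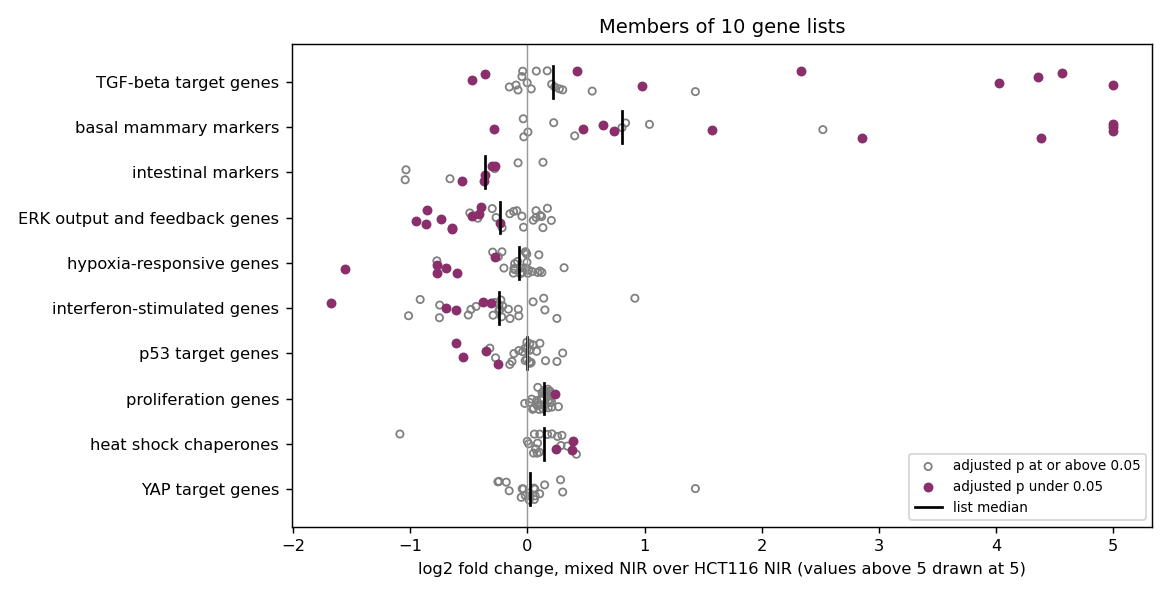
Log2 fold change of each tested member of 10 gene lists, mixed cultures over HCT116 alone, with filled points for an edgeR adjusted p under 0.05, open points otherwise and a bar at each list's median. The calls of the ERK, hypoxia, interferon and p53 lists lie left of zero, those of the TGF-beta and basal lists lie mostly right, and the proliferation list sits in a narrow band right of zero.

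Of 32 proliferation genes, MKI67 was the 1 gene called (3.12%, near the share of all genes). The list had a median of 0.14 and a range from -0.02 to 0.26, and 31 of the 32 were above zero. DESeq2 called 4 of them higher, against 278 of all 16455 genes. At an unadjusted p under 0.05 edgeR had 16 higher and 0 lower, against 2367 of all genes in either direction. In the irradiated cultures 20 of the 32 were called higher and 0 lower, where 5.08% and 3.48% of all genes were. MKI67 went from 1087 ± 69.8 to 1270.0 ± 40.8 CPM, and its call was lost in 5 of the 6 fits without 1 library. Of 20 heat shock chaperones tested, 3 rose (15.0%, where 0.887% of all genes were called higher). HSPH1 rose by 0.39, DNAJA1 by 0.38 and the endoplasmic reticulum chaperone HSPA5 by 0.25. Mixed replicate 1 was the highest library for these chaperones, the groups overlapped for DNAJA1, and none of their calls held in every fit that left out 1 library.

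Of 28 p53 target genes tested, 4 fell and none rose (14.3%, against 2.04% of all genes called), with a median of -0.01. The growth factor gene GDF15 fell by 0.61, the kinase gene PLK3 by 0.55, the cyclin-dependent kinase inhibitor gene CDKN1A by 0.35 and CCNG1 by 0.25 on the log2 scale. Only PLK3 among them was called in every fit that left out 1 library. MDM2, the canonical p53 feedback gene, and BAX were not called (0.03 and 0.08). CDKN1A had 318 ± 39.3 CPM in HCT116 and 246 ± 20.96 CPM in mixed cultures.

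The supplements of the MCF10A medium act on known genes, which is why lists for them were read. Of 22 glucocorticoid-responsive genes tested, none rose and 3 fell (13.6%, against 2.04% of all genes called). DDIT4 fell by 0.85, ANGPTL4 by 0.60 and ERRFI1 by 0.48 on the log2 scale. The standard glucocorticoid markers FKBP5 and TSC22D3 were not called (0.04 and -0.03). Of 20 cyclic AMP-responsive genes tested, PDE4B and PDE4D rose and FOS, JUNB and AREG fell, and the NR4A genes were not called (-0.57, -0.39 and -0.91). Of 33 genes of cholesterol and fatty acid synthesis, INSIG1, the sterol sensor partner, and the desaturase gene SCD fell by 0.49 and 0.29 (6.06%), and 27 were below zero, with a median of -0.07.

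Several programmes showed few or no calls. None of 20 YAP target genes tested was called by edgeR or DESeq2, including CCN1 and CCN2 (-0.05 and 0.30). An unadjusted p under 0.05 was found for 4 of them (3 higher, 1 lower), and for 2367 of all 16455 genes. None of 4 metallothioneins tested was called by edgeR or DESeq2, nor had any an unadjusted p under 0.05 (0 genes). Of 16 Wnt target genes tested, 1 (MYC) fell (6.25%, against 2.04% of all genes called), while AXIN2 and RNF43 were not called (0.13 and 0.02). Of 24 genes of the integrated stress response tested, 1 (DDIT4) fell (4.17%). Of 17 secretory and inflammatory genes tested, LCN2 and IL18 fell (11.8%). Of 13 mitochondrially encoded genes, MT-ND1 and MT-ND2 rose by 0.36 and 0.24 (15.4%), and both calls were lost when HCT116 replicate 2 was left out. A gene that was not called may still differ by an amount these 3 against 3 libraries could not resolve.

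The irradiated cultures gave a second comparison of mixed cultures with HCT116 alone that shares no library with the first. Of 17137 genes tested there, 1467 (8.56%) were called by edgeR, 871 (5.08%) higher and 596 (3.48%) lower. Of the 146 genes called higher without irradiation, 91 (62.3%, and 10.4% of the 871) were also called higher and none was called lower after irradiation. Of the 189 called lower, 75 (39.7%, and 12.6% of the 596) were also called lower. Another 4 of them, among which were IFI6, EGR1 and ZFP36L1, were called higher after irradiation. The difference between the 2 comparisons was itself called for 150 (0.83%) of 18072 genes, 123 (0.681%) higher and 27 (0.149%) lower after irradiation, and they held 19 of the 146 and 31 of the 189.

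TGFBI, ITGB6, PMEPA1, CYP24A1, LCN2, KLK6, KLK7 and KLK10 kept their direction. In irradiated cultures TGFBI was at 0.234 ± 0.0824 CPM in HCT116 and 124 ± 13.5 CPM in the mix, and CYP24A1 at 453 ± 8.60 and 978 ± 36.9 CPM. LCN2 was at 29.6 ± 2.02 CPM in irradiated HCT116 and 6.50 ± 1.45 CPM in the mix. The difference between the comparisons was not called for any of these genes (edgeR adjusted p = 0.201 for TGFBI, 0.757 for CYP24A1 and 0.524 for LCN2).

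The difference between the comparisons was called for 3 of 29 ERK output genes, 2 of 32 hypoxia genes and 12 of 30 interferon-stimulated genes, against 0.83% of all genes. FOS had 6.03 ± 1.44 CPM in irradiated HCT116 and 6.41 ± 0.621 CPM in the irradiated mix, and the log2 fold change was higher than without irradiation by 1.05 ± 0.22 (edgeR adjusted p = 0.0168). Among the 30 interferon-stimulated genes tested after irradiation, 13 rose and none fell, with a median of 0.33, where 5.08% of all genes were called higher and 3.48% lower. IFI6 rose from 23.0 ± 1.19 to 37.5 ± 1.10 CPM after irradiation, where it had fallen without it (difference 1.39 ± 0.15, edgeR adjusted p = 3.16e-06). ANKRD37 had 2.42 ± 0.799 and 2.93 ± 1.02 CPM after irradiation (difference 1.85 ± 0.33, edgeR adjusted p = 0.00377).

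**Figure D5:**
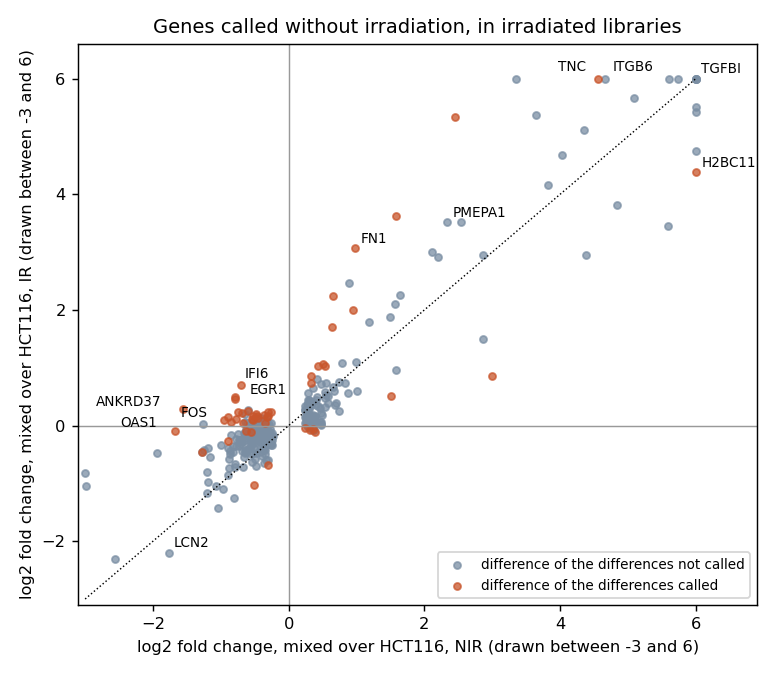
Log2 fold change of mixed cultures over HCT116 alone in non-irradiated (horizontal axis) and irradiated libraries (vertical axis) for the genes called without irradiation, drawn between -3 and 6, with a dotted line of equal change. TGFBI, ITGB6, PMEPA1 and LCN2 keep their direction, FN1 and TNC lie above the line, and IFI6 and EGR1 lie left of zero and above it.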

How the data were processed

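Poly(A)-selected RNA was sequenced in 18 libraries, 3 biological replicates for each of 6 groups. For each library the authors deposited unnormalized counts for 40916 gene symbols. The submitters' processing notes name fastp, STAR, featureCounts and GRCh38, and strand use in counting is not given in the sources used here. Of the values from 1 to 10, 68.4% were even, so mates may have been counted one by one, and fits with halved counts were added.

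Genes kept by filterByExpr in the 6 libraries compared were tested 2-sided by quasi-likelihood in edgeR 4.0.16 (R 4.3.3) after TMM scaling, with Benjamini-Hochberg adjustment. The difference between irradiated and non-irradiated comparisons was a contrast over 12 libraries. DESeq2 1.42.0, other scalings, no filter, a replicate block and leaving out each library were alternatives. CPM is a gene's count scaled by the library total, and intervals and floors cover counting error only. A test on simulated data of the non-irradiated comparison (16121 genes) recovered 82.7% of 98 genes changed by 2-fold and 61.2% of 98 changed by 1.5-fold, with 6 false calls among 15925.

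No replicate library was a copy of another by a chi-square test of counts. The members of the comparison, the gene lists and the tests were chosen with earlier results of these data known. Genes are named when they are among the 12 per direction with the largest log2 fold change, if they are called, reach 5 CPM in the higher group and show no overlap between groups, when they are called members of a list, or when earlier results named them (TGFBI, PDE4D, H2BC11, KRT5, KRT81, ANKRD37). Others were chosen after their values were seen. Some genes that the rule names are not reported here. Gene positions and promoters come from RefSeq GRCh38.p14, which matched 40307 of the 40916 symbols. The irradiated MCF10A libraries entered only the fit over all 18 libraries.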

Additional observations from a re-analysis of the deposited data

Results flagged for a closer look

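These genes changed differently between mixed cultures and HCT116 alone after irradiation than without it, by edgeR's test of that difference over all genes. Values are the irradiated minus the non-irradiated log2 fold change. TNC differed by 4.59, with HCT116 at 0.0163 CPM after irradiation, so the fitted size is no bound. FN1 differed by 2.09, as the irradiated mix held 357 ± 27.7 CPM of FN1 against 42.4 ± 2.42 CPM in irradiated HCT116. ANKRD37 differed by 1.85, FOS by 1.05, EGR1 by 0.98, ZFP36 by 0.81 and BHLHE40 by 0.64. The interferon-stimulated genes OAS1 and IFI6 differed by 1.59 and 1.39. The rise of H2BC11 was smaller after irradiation by -2.66, where HCT116 had 1.45 ± 0.32 CPM and the mix 30.9 ± 0.565 CPM. ZBED2 differed by -0.98, KRT8 by -0.38 and MT-ND2 by -0.28.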

How the results depend on the processing

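The 335 calls (146 higher, 189 lower) became 575 (278 and 297) with DESeq2, 671 (308 and 363) without a filter, and 768 (490 and 278) in 1 fit over all 18 libraries. Same-numbered libraries had residual correlations of 0.07, 0.01 and 0.17, and different-numbered ones ranged from -0.139 to 0.0835. Residuals centred within each group cannot settle whether replicate numbers pair the libraries, and the labels do not say. The replicate block gave 716 calls (319 and 397), which held all 335. Leaving out 1 library gave 145 to 313 calls, 68 to 144 higher and 77 to 181 lower (125 lower without HCT116 replicate 3). After irradiation the 1467 calls became 2220 with the replicate block and 866 to 1312 without 1 library. The 150 calls of the difference between comparisons became 327 with DESeq2, 336 without a filter, 125 with the replicate block and 64 to 197 without 1 library.

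List medians that moved were those of intestinal markers (-0.29 over 18 libraries, -0.31 halved, -0.28 without a filter), H2B genes (-0.20 without a filter), H2A, H3 and H4 genes (-0.0113 with the block) and secretory factors (-0.0314 over 18 libraries, -0.0379 with the block). Without 1 library, medians ranged from 0.63 to 0.99 for basal markers, -0.38 to -0.30 for intestinal markers, -0.13 to -0.0105 for keratins, -0.14 to 0.17 for H2A, H3 and H4 genes, -0.20 to -0.0482 for glucocorticoid, -0.12 to -0.0247 for cyclic AMP and -0.10 to -0.0261 for Wnt genes, -0.12 to 0.10 for secretory factors and -0.19 to 0.33 for metallothioneins. The MCF10A-specific median was 0.322% for genes of at least 50 CPM, 0.274% for genes under 0.2 CPM in irradiated HCT116, and 0.378% to 0.436% without 1 library. None of the 83 named genes reversed under an alternative, and leaving out 1 library ended 8 (mixed replicate 3) to 30 (mixed replicate 1) of their calls. The causes were not tested. Depth limits genes near 0 counts in HCT116, such as TP63 and DSG3.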

Other observations

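Some clear changes lay outside the lists and were picked after their values were seen. The cell cycle kinase gene CDK6 rose from 156 ± 9.95 to 251 ± 13.0 CPM (0.70 ± 0.06, edgeR adjusted p = 8.88e-06), and the chromatin protein gene HMGA2 from 292 ± 28.3 to 424 ± 34.98 CPM (0.55 ± 0.08). MCF10A had 332 CPM of CDK6 and 288 ± 14.25 CPM of HMGA2, the latter within the SD of its HCT116 level. THBS1, which encodes thrombospondin 1, rose by 0.53 ± 0.09, or 0.835% of its MCF10A level. CLDN4, a tight junction claudin, fell from 165 ± 10.5 to 92.4 ± 11.3 CPM (-0.82 ± 0.08, edgeR adjusted p = 1.24e-05), and MCF10A had 0.991 CPM. These 4 genes were called in each of the 6 fits that left out 1 library. After irradiation all 4 were called in the same direction, with log2 fold changes of 0.38, 0.53, 1.04 and -0.47.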
